A study of Mus musculus with 8 samples.

Results

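The general splicing factors examined here are 50 genes of the 16573 gene symbols in the authors' deposited table. They were chosen by name: the SR proteins (Srsf genes, 10), the SR-like factors Tra2a and Tra2b with the 3' splice site factors U2af1 and U2af2 (4), the SRPK and CLK kinases of SR proteins (6), the hnRNP genes (21) and the subunits of SF3a and SF3b (9). The rule uses names alone, but the set was chosen with earlier results of these data known. The rule takes in 1 processed pseudogene, Hnrnpa1l2-ps2, so 49 of the 50 are protein coding. Of 52 symbols in the GENCODE vM21 annotation that satisfy the rule, Srsf12 and Hnrnpa1l2-ps were not analysed here.

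The libraries came from mice labelled Ctrl and Psat1iKO, with 4 libraries in each group. In both groups the tibialis anterior and extensor digitorum longus muscles had been injured with notexin at 2 mg/mL, a venom toxin that kills muscle fibres, and were collected 3 days later. The labels describe sorted muscle stem cells, whereas the series' design text describes RNA taken from the muscles. The sources used here do not give the strain, age, deleter, deleted exons or control alleles. The main row of the targeted gene, Psat1.1, had fitted means of 20204 in Ctrl and 14362 in Psat1iKO; its log2 difference in the authors' deposited table was -0.49 ± 0.0675 (SE), and DESeq2's adjusted p was 1.22e-09. A fitted mean is the group's normalized count rebuilt from the deposited mean and fold change, and all log2 values are Psat1iKO minus Ctrl with DESeq2's SE. Whether the 4 libraries of a group are separate mice is not stated, and the p-values therefore reflect only library-to-library spread, which may be technical.

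Splicing removes introns from pre-mRNA. SR proteins bind exons through RNA recognition motifs and recruit the spliceosome through arginine-serine repeats, which SRPK and CLK kinases phosphorylate. The hnRNPs coat nascent transcripts and often oppose exon inclusion. U2AF binds the 3' end of the intron, and SF3a and SF3b hold the U2 particle at the branch point. Many SR and hnRNP genes limit their own output by splicing in an exon with an early stop codon, which sends the transcript to nonsense-mediated decay. Alternative splicing is extensive in differentiating muscle.

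The table can list a gene in several rows, and the sources used here do not give what a row stands for. Whether rows are transcripts or other parts of a gene is therefore not known. The 50 splicing factor genes have 150 rows, 36 of the genes have several rows, and Hnrnpf has the most, 8. A row such as Srsf11.6 cannot be matched to a particular transcript. Leading row means here the row of highest mean normalized count within a gene, and the other 100 rows are minor rows. GENCODE vM21 lists a nonsense-mediated decay transcript for 30 of the 50 genes (60.0%), against 27.0% of the 13977 protein-coding genes of the table, and a retained-intron transcript for 39 (78.0%, against 55.9%). In 12 of the 50 genes the early stop lies in an exon that overlaps no coding exon of the basic protein-coding transcripts.

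The coding part of some of these exons, up to the early stop codon in capitals, is shown for Srsf11, which holds the called row described further on, and for Srsf3, Srsf7, Tra2a and Tra2b as examples from the SR and TRA2 genes. The sequences are from GENCODE vM21 transcripts on GRCm38, read on the strand of the gene, 5′ to 3′. Each label gives the length of the whole exon but the coordinates of only the coding part that is shown. No row of the table could be assigned to any of these exons.
Srsf11, exon of 109 bases, chr3:158024209-158024231, minus strand: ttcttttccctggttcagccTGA
Srsf11, exon of 117 bases, chr3:158023310-158023359, minus strand: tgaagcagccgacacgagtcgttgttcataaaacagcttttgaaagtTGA
Srsf3, exon of 456 bases, chr17:29039454-29039487, plus strand: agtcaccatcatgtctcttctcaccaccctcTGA
Srsf7, exon of 460 bases, chr17:80205054-80205081, minus strand: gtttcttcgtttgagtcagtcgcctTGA
Tra2a, exon of 306 bases, chr6:49252965-49253108, minus strand: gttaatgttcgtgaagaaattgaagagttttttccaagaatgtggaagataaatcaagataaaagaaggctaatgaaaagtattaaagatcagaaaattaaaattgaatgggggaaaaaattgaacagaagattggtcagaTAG
Tra2b, exon of 276 bases, chr16:22259181-22259261, minus strand: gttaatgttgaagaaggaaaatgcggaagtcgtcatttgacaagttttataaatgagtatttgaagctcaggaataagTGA

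Splicing factors were abundant in these libraries. Their rows made up 1.76% of the summed mean normalized counts of the authors' deposited table. Levels between genes are compared as the mean normalized count of all rows of a gene per kb of transcript length. That length is the median over the gene's basic protein-coding transcripts, or over all its transcripts where it has none. On this scale hnRNP genes took the first 9 places. Hnrnpa2b1, which packages nascent RNA, had 36177 per kb, Hnrnpab 28532, Hnrnpa1 22711 and Hnrnpf, a binder of G-rich RNA, 19319. Among SR proteins the order ran from Srsf2, which binds exonic enhancers, at 11094 per kb and the small SR protein Srsf3 at 8423 to Srsf11 at 645. The kinases were lower, with a median of 691 per kb and values from 146 for Srpk2 to 2900 for Srpk1. U2af2, the subunit that reads the polypyrimidine tract, had 9443 per kb and its partner U2af1 5430. The pseudogene Hnrnpa1l2-ps2 stood at 30.5 per kb. It differs from an Hnrnpa1 transcript at 22 positions over its 963 bases (97.7% identity), so reads of the parent gene could be counted there. No spread between libraries can be attached to these levels, because the deposited means are over all libraries.

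**Figure D1:**
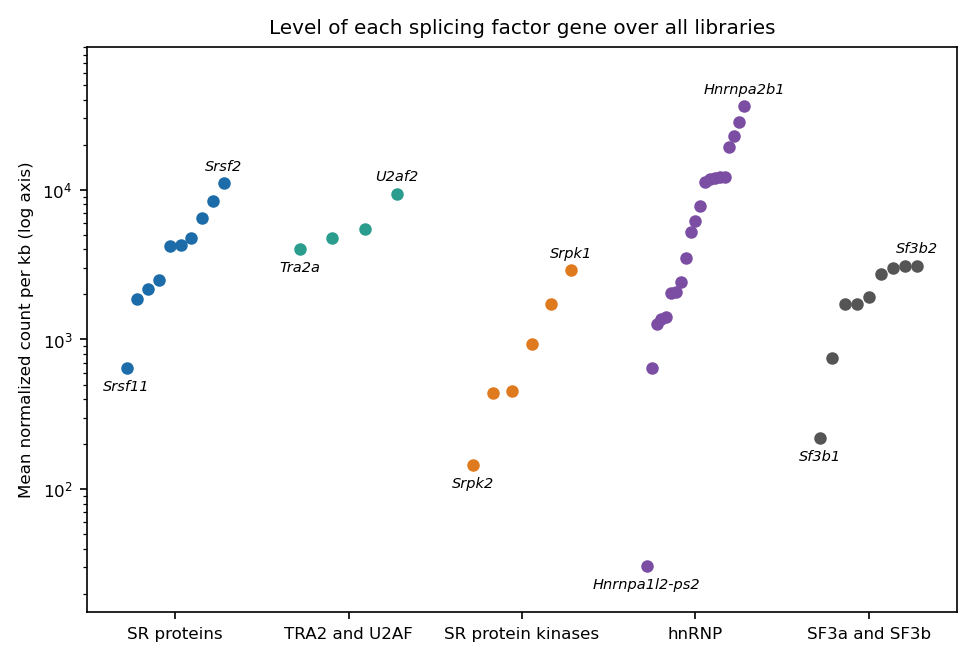
Each point is 1 gene, and the columns are the families. The vertical log axis gives its mean normalized count over all libraries, summed over its rows, per kb of median transcript length (basic protein-coding transcripts where present). The hnRNP genes reach highest, with Hnrnpa2b1 at 36177 per kb, and the lowest protein-coding gene is Srpk2 at 146 per kb.

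No leading row of a splicing factor passed the test between Psat1iKO and Ctrl. A row is called here where DESeq2's adjusted p in the authors' table is under 0.05. Of 50 leading rows 0 were called, where 0.338% of all 16573 leading rows were, and 0 with p-values adjusted over leading rows alone (0.223% of all). At an unadjusted p under 0.05 there were 2 of 50 (4.0%), both lower, against 4.09% of all leading rows, so the share was near the background. Both had a mean normalized count of at least 1000, where the background was 4.89%. The median log2 fold change of the 50 leading rows was -0.01, and that of all leading rows was -0.01. Their errors were small, with a median SE of 0.0541 on the log2 scale. For 42 of the 50 the 95% interval lay within a rise of 25% and the fall of equal ratio, called the 25% band from here on. That share was 93.2% of the 44 with a mean normalized count of at least 1000 and 81.0% of all 5341 leading rows at such means. In bulk RNA, fewer cells of a type and less RNA per cell cannot be told apart, and this holds for every level given here.

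**Figure D2:**
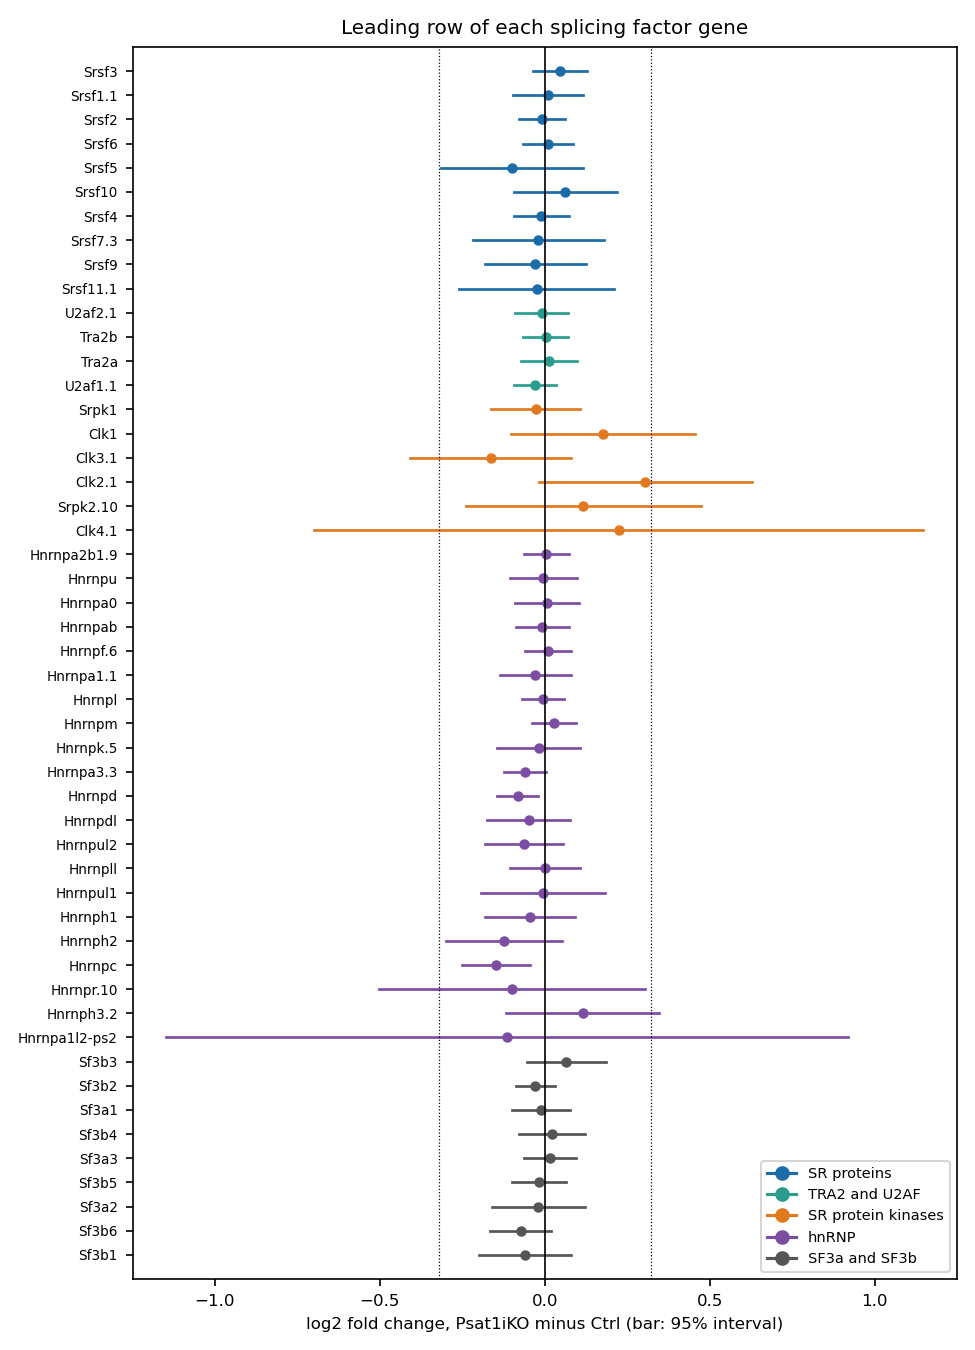
Each line is the leading row of 1 gene, with the point at its log2 fold change (Psat1iKO minus Ctrl, horizontal axis) and the bar its 95% interval from the authors' SE; dotted lines mark the 25% band, and colours mark the families. The intervals of all SR, TRA2, U2AF and SF3 rows stay between the dotted lines, and the kinases Clk2.1 and Clk4.1 and the pseudogene have wide intervals.

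No SR protein gene had a leading row that was called, and all 10 intervals lay within the 25% band. The log2 differences ranged from -0.10 to 0.06 with a median of -0.01, 4 above and 6 below 0, and 0 had an unadjusted p under 0.05. Srsf3, which also acts in mRNA export, had fitted means of 18644 in Ctrl and 19251 in Psat1iKO, with a log2 value of 0.05 ± 0.0417 in the authors' deposited table. The leading row of Srsf1, the founding splicing activator of the family, stood at 0.01 ± 0.0542 and that of Srsf2 at -0.01 ± 0.0362 in the authors' deposited table. Srsf6, an SR protein with a pair of RNA recognition motifs, had 9598 in Ctrl and 9663 in Psat1iKO, with 0.01 ± 0.0383 in the authors' deposited table. The fitted means of all SR rows summed to 97848 in Ctrl and 98527 in Psat1iKO. The intervals above cover leading rows only, which made up 38.3% of the summed rows of Srsf11, 49.6% of Srsf7 and 51.9% of Srsf10. For Srsf11 the total over all rows was -0.35 ± 0.150 on the log2 scale.

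Srsf11 held the 1 called row among the 150, which is 0.667% against 0.656% of all 36743 rows. It was lower, as were 0.324% of all rows, and 0 of the 150 were called higher, against 0.332%. Srsf11 encodes an SR-related protein that contacts U2AF. The gene lies on chr3:158010473-158036639 (GRCm38, minus strand) and shares no exon bases with another gene of the annotation. The fitted mean of Srsf11.6 was 839 in Ctrl and 483 in Psat1iKO, or 0.576 times the Ctrl level. In the authors' deposited table its log2 difference was -0.80 ± 0.196 (95% interval -1.18 to -0.41), and DESeq2's adjusted p was 0.0116. The row made up 40.2% of the summed rows of the gene in Ctrl and 29.6% in Psat1iKO. The leading row, Srsf11.1, was close to it in mean and had fitted means of 718 in Ctrl and 706 in Psat1iKO, with -0.02 ± 0.119 in the authors' deposited table. The third row, Srsf11.2, had -0.25 ± 0.479 in the authors' deposited table, with 528 in Ctrl and 443 in Psat1iKO. Srsf11.6 differed from the leading row by -0.77 ± 0.229 on the log2 scale, with the SE taken as if the rows were independent. The total of the 3 rows was 2085 in Ctrl and 1632 in Psat1iKO (log2 -0.35 ± 0.150), which has no test. Of all 50 totals this was the one farthest from 0.

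Markers of other cell types lay mostly on 1 side of 0 in the same table. Of 18 macrophage markers 14 had a row, all 14 below 0 (median -1.83 on the log2 scale, median SE 1.06). Of these leading rows 0 were called, against 0.338% of all leading rows. An unadjusted p under 0.05 stood in 4 (28.6%), against 4.09% of all leading rows. The markers' summed fitted means were 3725 in Ctrl and 847 in Psat1iKO, of which Lyz2 alone gave 1849 and 299. Single markers had mean normalized counts from 4.93 for Ly6c2 to 1074 for Lyz2. For pericytes and smooth muscle, 10 of 13 leading rows were above 0 (median 0.55, median SE 0.393). Among them 0 were called, and 2 (15.4%, against 4.09% of all leading rows) were higher at an unadjusted p under 0.05. Those 2 were Rgs5.1, at 1.04 ± 0.352 in the authors' deposited table, and Mcam. A minor row, Myh11.2, was called higher, where 0.917% of all minor rows were called in either direction. Without Des, which is also in the muscle stem cell list, the pericyte and smooth muscle genes summed to 11319 in Ctrl and 13699 in Psat1iKO. Muscle stem cell and myoblast genes without Des summed to 121819 in Ctrl and 124345 in Psat1iKO. Of the 14 leading rows in that full list 1 was called, against 0.338% of all leading rows. It was Myod1, the myoblast transcription factor, which was higher. The stem cell factor Pax7 had a mean normalized count of 1060 in its leading row, Pax7.1. The part of macrophages or of pericytes in the Srsf11.6 result was not tested.

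**Figure D3:**
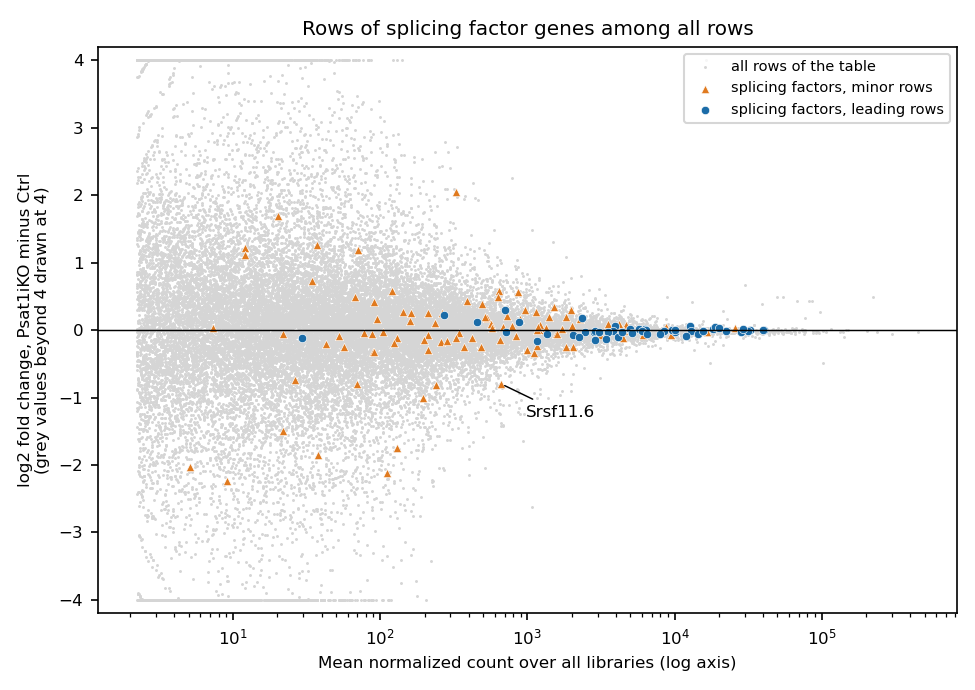
Every row is placed by its mean normalized count (horizontal log axis) and its log2 fold change, Psat1iKO minus Ctrl (vertical axis); grey is the whole table, blue circles are leading rows and orange triangles minor rows of splicing factor genes. The called row Srsf11.6 lies at -0.80, and the triangles farther from 0 have lower means, none above 328.

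No other SR row was called. Srsf5.2, a minor row of Srsf5 (a splicing activator induced by growth signals), had fitted means of 871 in Ctrl and 1067 in Psat1iKO with a log2 value of 0.29 ± 0.0883 in the authors' deposited table, where DESeq2's adjusted p was 0.0968. The leading row Srsf5 stood on the other side of 0, at -0.10 ± 0.110 in the authors' deposited table, and the gene total was -0.02 ± 0.0774. Of the 20 minor rows of SR genes, 4 were above and 2 below 0 at an unadjusted p under 0.05, 30.0% against 7.65% of all minor rows. Rows of 1 gene may share reads and may not be independent. Srsf10, which represses splicing in mitosis and after heat shock, held both directions: Srsf10.3 had 0.19 ± 0.0927 and Srsf10.1 had -0.34 ± 0.159 in the authors' deposited table. Srsf7.3 is the leading row of Srsf7, a relative of Srsf3, and the minor row named Srsf7 had 0.57 ± 0.272 in that table (unadjusted p 0.0354). Srsf2.1 had 0.18 ± 0.0826 in the authors' deposited table (unadjusted p 0.0258). None of these rows is called, and the totals of Srsf2, Srsf7 and Srsf10 were 0.02, 0.03 and 0.01 on the log2 scale.

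TRA2 and U2AF genes had the smallest errors of the families, with a median SE of 0.0375. The leading rows of Tra2a and Tra2b, SR-like activators of exons with GAA repeats, had 0.01 ± 0.0440 and 0.00 ± 0.0344 in the authors' deposited table. U2af1.1, for the subunit that reads the AG at the intron end, had -0.03 ± 0.0325 and U2af2.1 had -0.01 ± 0.0406 in the same table. Each of the 4 intervals was within the 25% band, and 0 of 15 rows had an unadjusted p under 0.05.

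The SR protein kinases had the widest range of leading rows, from -0.16 to 0.31. The median over their 6 leading rows was 0.15 on the log2 scale (median SE 0.154), 4 above and 2 below 0, with 0 called and 0 at an unadjusted p under 0.05. The median was 0.047 over the totals of the 6 genes and -0.0277 over the 3 leading rows of mean 1000 or more. The interval of Srpk1 alone lay within the 25% band. Srpk1, the mainly cytoplasmic kinase, had 3109 in Ctrl and 3049 in Psat1iKO and a log2 value of -0.03 ± 0.0690 in the authors' deposited table. Clk2.1 was the leading row farthest from 0, with 628 in Ctrl and 777 in Psat1iKO; the authors' deposited table gives 0.31 ± 0.165 and a DESeq2 adjusted p of 0.887. CLK kinases are nuclear and release SR proteins from speckles. The leading row of Clk1 had 0.18 ± 0.142 and its minor row Clk1.1 had -0.81 ± 0.360 in the authors' deposited table, the second with an unadjusted p of 0.0245. Clk3.1 stood at -0.16 ± 0.125 and Clk4.1 at 0.22 ± 0.471 in the authors' deposited table. Clk4 is spread over 7 rows, of which the leading row holds 38.2%, and their SEs ran from 0.371 to 2.46. Srpk2.10 had 0.12 ± 0.182 in the authors' deposited table, while the total of the 7 Srpk2 rows had -0.13 ± 0.215. Summed over all rows, the log2 values were 0.10 ± 0.113 for Clk1, 0.17 ± 0.177 for Clk2, -0.05 ± 0.0747 for Clk3 and 0.19 ± 0.345 for Clk4. For the leading rows of the CLK genes and Srpk2 the intervals reached beyond the 25% band.

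The hnRNP genes had 21 leading rows, 6 above and 15 below 0, with a median log2 difference of -0.02 and a range of -0.15 to 0.11. Of the 21, 0 were called, against 0.338% of all leading rows. Among the 19 with a mean normalized count of at least 1000, 5 were above and 14 below 0. All 5341 leading rows at such means also lay mostly below 0, with 2108 above and 3233 below. Intervals lay within the 25% band for 18 of the 21. Hnrnpa2b1.9 had 40759 in Ctrl and 40896 in Psat1iKO (0.00 ± 0.0347 in the authors' deposited table). Hnrnpu, a nuclear scaffold protein, had 39870 and 39750 (-0.00 ± 0.0519 in the authors' deposited table). Hnrnpa0 stood at 0.01 ± 0.0494, Hnrnpab at -0.01 ± 0.0411 and Hnrnpa1.1 at -0.03 ± 0.0551 in the authors' deposited table. The family summed to 447929 in Ctrl and 446406 in Psat1iKO.

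Hnrnpc and Hnrnpd were the 2 leading rows with an unadjusted p under 0.05, 9.52% of the 21 hnRNP leading rows against 4.09% of all leading rows. Hnrnpc, whose protein binds uridine tracts and measures transcript length, had 3044 in Ctrl and 2749 in Psat1iKO, with a log2 value of -0.15 ± 0.0525 in the authors' deposited table (adjusted p 0.278 by DESeq2). Hnrnpd encodes AUF1, which binds AU-rich elements and promotes decay of their mRNAs. Its leading row had 12220 in Ctrl and 11540 in Psat1iKO, with -0.08 ± 0.0320 in the authors' deposited table (adjusted p 0.410 by DESeq2). All 6 minor rows of Hnrnpd lay above 0, from 0.04 for Hnrnpd.4 to 0.42 for Hnrnpd.6 in the authors' deposited table. Among these, Hnrnpd.2 had 1043 in Ctrl and 1262 in Psat1iKO, with 0.28 ± 0.0949 in the authors' deposited table (unadjusted p 0.00371, adjusted p 0.229 by DESeq2). The 7 rows together gave 22213 in Ctrl and 22322 in Psat1iKO, or 0.01 ± 0.0248 on the log2 scale. The leading row's share of the gene was 55.0% in Ctrl and 51.7% in Psat1iKO. An antisense gene shares 385 exon bases with Hnrnpd, and whether counting used strand is not given in the sources used here.

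Hnrnpa1 had a minor row of low p as well. Hnrnpa1.3 had 2215 in Ctrl and 1856 in Psat1iKO, with -0.25 ± 0.0775 in the authors' deposited table (unadjusted p 0.00101, adjusted p 0.102 by DESeq2). It holds 5.16% of the gene, and the gene total was -0.02 ± 0.0452 on the log2 scale. Hnrnpf is spread over 8 rows. Its leading row Hnrnpf.6, with 66.9% of the gene, had 0.01 ± 0.0357 in the authors' deposited table, and the lowest p of the others was that of Hnrnpf.1, 0.038, at -0.24 ± 0.115 in the authors' deposited table. Hnrnph2, a close relative of Hnrnph1, had -0.12 ± 0.0900 and Hnrnpa3.3 had -0.06 ± 0.0324 in the authors' deposited table, neither called. Minor rows of Hnrnpa2b1 and Hnrnpr had unadjusted p-values under 0.05 as well: Hnrnpa2b1.1 had 0.30 ± 0.123 and Hnrnpr.5 had -0.79 ± 0.312 in the authors' deposited table. The pseudogene Hnrnpa1l2-ps2 had the widest interval of the leading rows, with -0.11 ± 0.528 in the authors' deposited table.

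**Figure D4:**
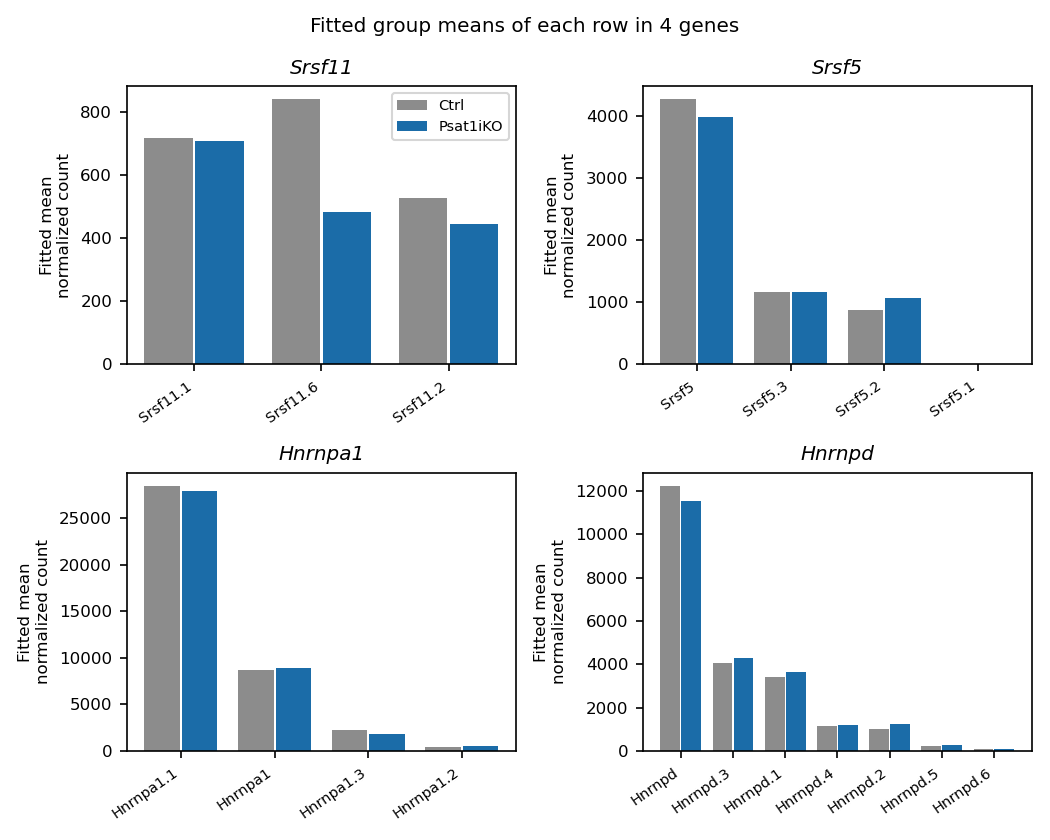
Bars are fitted mean normalized counts of each row (vertical axis, from 0) in Ctrl (grey) and Psat1iKO (blue) for Srsf11, Srsf5, Hnrnpa1 and Hnrnpd, with rows ordered by mean; the deposited values allow no error bar per group. Srsf11.6 is lower in Psat1iKO beside a level Srsf11.1, and in Hnrnpd the leading row is slightly lower and the others slightly higher.

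No subunit of SF3a or SF3b was called. Of the 9 leading rows 3 were above and 6 below 0, from -0.07 to 0.06, with 0 at an unadjusted p under 0.05, and all 9 intervals lay within the 25% band. Sf3b2, which contacts the RNA near the branch point, had 10098 in Ctrl and 9899 in Psat1iKO and a log2 value of -0.03 ± 0.0305 in the authors' deposited table. Sf3b3, a scaffold subunit, had 0.06 ± 0.0611 and Sf3b6, which sits at the branch point adenosine, -0.07 ± 0.0471 in the authors' deposited table. Sf3a1 stood at -0.01 ± 0.0450, Sf3a3 at 0.02 ± 0.0400, Sf3b4 at 0.02 ± 0.0513 and Sf3b5 at -0.02 ± 0.0417 in the authors' deposited table. Sf3a2 and Sf3b1, the subunit that clamps the branch site, had -0.02 ± 0.0718 and -0.06 ± 0.0716 in the authors' deposited table. The family's summed fitted mean was 52286 in Ctrl and 52500 in Psat1iKO.

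Minor rows lay farther from 0 than leading rows, with a median absolute log2 difference of 0.186 against 0.0282, and had larger errors, with a median SE of 0.290 against 0.0541. Over all 150 rows 14 (9.33%) had an unadjusted p under 0.05, against 6.04% of all rows, and 6 (4.0%) one under 0.01, against 2.41%. Of the 100 minor rows 1 was called, against 0.917% of all minor rows (0.471% lower), and 12 had an unadjusted p under 0.05, 6 higher and 6 lower, against 7.65% of all minor rows. Among the 76 with a mean of at least 100, 11 (14.5%) had an unadjusted p under 0.05, against 6.41% of all such minor rows. A difference of 2-fold or more, regardless of p, stood in 13 of the 150 rows, 8.67% against 20.1% of all rows. These shares are not at like means. The 150 rows had a median mean normalized count of 1153 and a median SE of 0.142, against 82.3 and 0.594 for all rows. None of the 13 is called, their smallest unadjusted p was 0.189 and their smallest SE 1.09. Called rows that also differed by 2-fold numbered 0 of 150 by DESeq2, against 0.482% of all rows. In 30 of the 36 genes with several rows, some rows lay above and others below 0. Over the 33 genes with several rows and a total of at least 1000, the row whose share of the gene moved most did so by a median of 1.36 percentage points, against 2.34 over 3793 such genes of the table. The shift exceeded 10 points in 2 of the 33 (6.06%, against 7.30% of the 3793), Srsf11 and Hnrnpr, where Hnrnpr.4 had 2.05 ± 1.77 in the authors' deposited table and was not called.

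Sf3a3, Srsf4, Srsf10 and Hnrnpr lie within 20 Mb of Pax7 on chromosome 4, a window chosen with earlier results of these data known. Their leading rows had log2 differences of 0.02 ± 0.0400, -0.01 ± 0.0426, 0.06 ± 0.0794 and -0.10 ± 0.205 in the authors' deposited table. Of these leading rows 0 were called by DESeq2, against 0.338% of all leading rows, and 0 had an unadjusted p under 0.05, against 4.09%. Among their minor rows, Srsf10.1, Srsf10.3 and Hnrnpr.5 had an unadjusted p under 0.05 by DESeq2, as did 7.65% of all minor rows of the table. None was called, against 0.917% of all minor rows. Sf3a3, Srsf4, Srsf10 and Hnrnpr have 1, 3, 5 and 6 rows, leading rows included, and rows of 1 gene may not be independent.

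The authors' deposited enrichment tables, of terms for rows higher and for rows lower in Psat1iKO, list 0 of the 50 genes, and 0 of their 26 and 96 entries are named for splicing. They hold 27 and 48 gene symbols. Their names state a threshold that includes a 2-fold difference, and 0 rows of the 50 genes were called at 2-fold. The absence of these genes was thus set by that threshold and is no separate result.

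Genes that work beside the splicing factors were counted the same way. In 8 lists of spliceosome, exon junction complex and nonsense-mediated decay genes, the median over 113 leading rows was -0.01 on the log2 scale. Of the 113, 0 were called, against 0.338% of all leading rows. At an unadjusted p under 0.05 there were 4 (3.54%), against 4.09% of all leading rows. The medians of single lists ran from -0.05 for the minor spliceosome, which removes a rare intron class, to 0.00 for the U1 and tri-snRNP lists. Of 277 rows 1 was called, where 0.656% of all rows were, so the number called was not above the background. That row was Srrm1.5, a minor row with 8.32% of Srrm1, a coactivator that joins SR proteins to the exon junction complex. It had 470 in Ctrl and 633 in Psat1iKO, with 0.43 ± 0.111 in the authors' deposited table (adjusted p 0.0213 by DESeq2). Among the leading rows of smallest p in their lists were Tia1.3, a U1 helper, at -0.39 ± 0.133, Snrnp40 of the U5 particle at 0.08 ± 0.0290 and Rbm39, a U2AF-like factor, at -0.37 ± 0.215 in the authors' deposited table, none called. In the nonsense-mediated decay list Upf3b, which links the exon junction complex to decay, had -0.11 ± 0.0757 and Smg9 had -0.08 ± 0.0802 in the authors' deposited table.

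**Figure D5:**
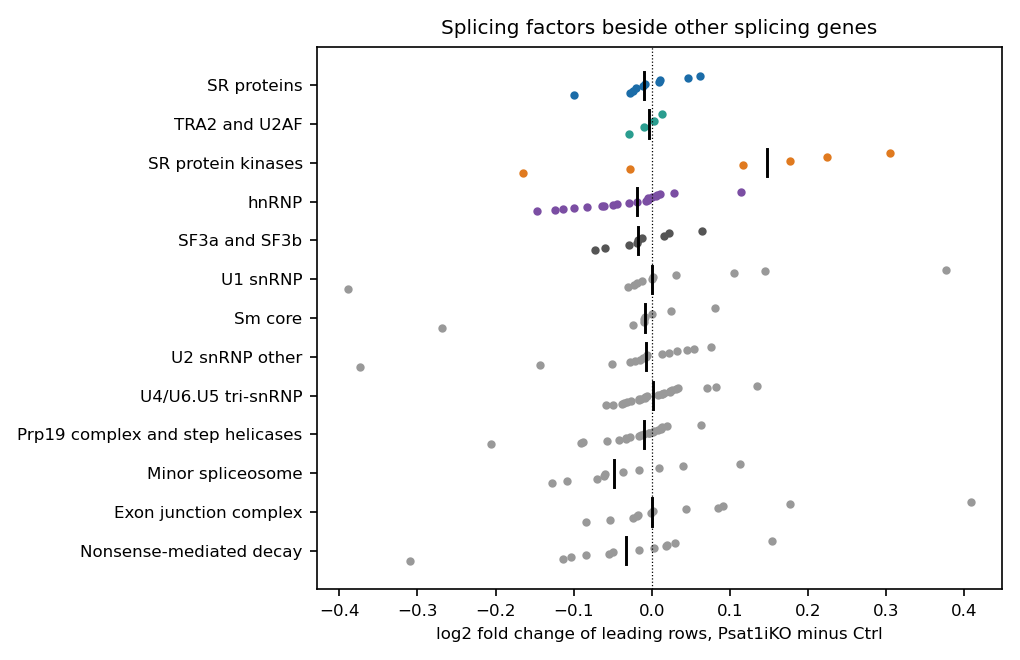
Each point is the log2 fold change of 1 leading row, Psat1iKO minus Ctrl, by family (coloured) and by list of other splicing genes (grey); black strokes are medians. Medians lie near 0 in every group except the SR protein kinases at 0.15, whose median SE is 0.154 and whose median over gene totals is 0.047.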

How the data were processed

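HISAT2 2.2.1 and DESeq2 (given as 4.2.0) with build mm10 are named, per the submitters' processing notes. Which counting program, annotation and strand setting served was not given in the sources used here. Poly(A) libraries took 250 ng of RNA, per the labels. The authors deposited, for each of 36743 rows, a mean normalized count over all libraries (a signal), a log2 fold change with its SE, a Wald score, a p-value and an adjusted p. Per the file headers the deposited fold changes set Ctrl over Psat1iKO; their sign was reversed here. No values per library were analysed here, so depth is unknown and no SD can be given.

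Group means were fitted from the pooled mean and fold change, assuming equal groups, and summed over rows for gene totals (SE propagated with rows independent). Adjustment was Benjamini-Hochberg over all rows; recomputation matched within 1.39e-05. Scripts (Python 3.11.15, pandas 2.3.3, scipy 1.17.1) were tested on simulated data. Genes and annotation are from GENCODE vM21 (GRCm38), and 21 of the 50 genes share exon bases with another gene. Members, lists and the rule for named genes (called genes, rows with p under 0.01, leading rows of highest mean, smallest p or largest change, and genes with most rows) were chosen with earlier results of these data known; rows at p under 0.05 named beyond it were chosen after their values were seen. Count tests, foreseen only for a table of counts per library, were not run, and the deposited enrichment tables were searched for gene symbols and term names only.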

Additional observations from a re-analysis of the deposited data

How the results depend on the processing

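The count of called rows stayed at 1, Srsf11.6, when p-values were adjusted over rows whose mean was 10 or more (adjusted p 0.0104) or 100 or more (0.0154). It was 0 with Bonferroni adjustment over all rows, and 2 at an adjusted p under 0.1, where Srsf5.2 joins. Called leading rows and rows called at 2-fold numbered 0 under each alternative run. Family medians moved by less than their median SE with every row, gene totals or means of at least 1000, except the kinases, whose median of 0.15 was 0.047 with gene totals, within that SE, and -0.0277 over the 3 leading rows of mean 1000 or more; the 3 of lower mean are then left out. Of 35 named leading and called rows, 6 moved by more than their SE when the gene total replaced the row. The called row Srsf11.6 was among these 6, at -0.80 against -0.35 for the gene total. The leading row Srsf11.1 was another, at -0.02 against the same total. Of the 6, Hnrnpd (total 0.0071) and Srpk2 (total -0.13) changed sign. Their leading rows were not called, and gene totals have no test. No paired analysis was possible because the table carries no value per library. For the same reason leaving out a library, a replicate block and edgeR with TMM were not run.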

Other observations

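Sf3b1 had 220 mean normalized counts per kb, while its partners Sf3b2, Sf3b3 and Sf3b4 had 3103, 3090 and 3010 per kb. The table lists 1 row for Sf3b1, where GENCODE vM21 has 8 transcripts, and its log2 fold change was -0.06 ± 0.0716 in the authors' deposited table.

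The paralogs Magoh and Magohb, whose proteins are nearly the same exon junction complex subunit, stood on different sides of 0. Magoh had 3002 in Ctrl and 2832 in Psat1iKO (-0.08 ± 0.0350 in the authors' deposited table, adjusted p 0.514 by DESeq2), and Magohb.1 had 791 and 1050 (0.41 ± 0.140 in the authors' deposited table, adjusted p 0.222 by DESeq2). Neither was called, and their difference was not tested.

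Row names of Srpk2 run up to Srpk2.18, while GENCODE vM21 lists 10 transcripts for the gene.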
